A study of Mus musculus with 4 samples.

Results

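A set of 10 genes of the sperm ADAM system was examined in whole testes of 24-day-old mice lacking RFX2: Adam1a, Adam1b, Adam2, Adam3, Adam5, Adam18 and Adam24, which encode membrane proteins of the ADAM family (a disintegrin and metalloprotease), and Clgn, Calr3 and Pdilt, which encode chaperones of the endoplasmic reticulum (ER) of male germ cells. They were taken by name, and all 10 were found among the 22311 gene symbols of the files. RNA was sequenced from 2 mutant samples (Rfx2-/-, called mutant 1 and mutant 2) and 2 control samples (control 1 and control 2), which the labels number as replicates and the study's methods describe as biological replicates. The labels call the controls wild type and the strain DBA, whereas the study's methods describe heterozygous controls on a mixed 129/s6 and C57BL/6 background, so the controls may carry 1 mutated allele. The mutation derives from a single embryonic stem cell clone in which 2 exons for the DNA-binding domain were replaced by a neomycin-resistance cassette, and it is constitutive, not limited to germ cells. All levels are FPKM, the fragments of a gene scaled by its transcript length and by the mapped fragments of the library, so that levels of different genes can be compared.

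Many sperm ADAMs lack the metalloprotease active site. They are made in spermatocytes and spermatids, folded and paired in the ER, and carried to the surface of the sperm, where fertilin (ADAM1 with ADAM2) and cyritestin (ADAM3) are known for sperm passage into the oviduct and binding to the egg coat. Calmegin (CLGN, a germ cell relative of calnexin), calsperin (CALR3, a relative of calreticulin) and PDILT (a relative of protein disulphide isomerase) act in this folding, and ADAM3 is lost from sperm when any of them is missing.

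Among the 10 genes, Adam5 fell in the mutant testes, and the fertilin genes, Adam3, Adam18, Clgn and Pdilt had log2 fold changes between -0.36 and 0.09 that were not called. Adam24 and Calr3 were lower on average, at -0.80 and -0.59, and were not called either. By limma on log2(FPKM + 1), with a two-sided p adjusted by Benjamini-Hochberg over 12985 genes and called under 0.05, 1 of the 10 was lower in the mutants and 0 were higher. Among all genes tested, 2.52% were called lower and 0.308% higher. At an unadjusted p under 0.05, 2 of the 10 were lower (6.68% of all genes) and 0 were higher (2.01% of all genes). The mutants were both below the controls for 2 genes, Adam5 and Adam24, against 15.2% of all genes, and above them for 0, against 16.3%. Over the 10 genes the log2 fold changes had a median of -0.047, against 0.032 over all genes tested. All 10 had an FPKM above 1 in every sample, so none was selected by the filter on low values.

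**Figure D1:**
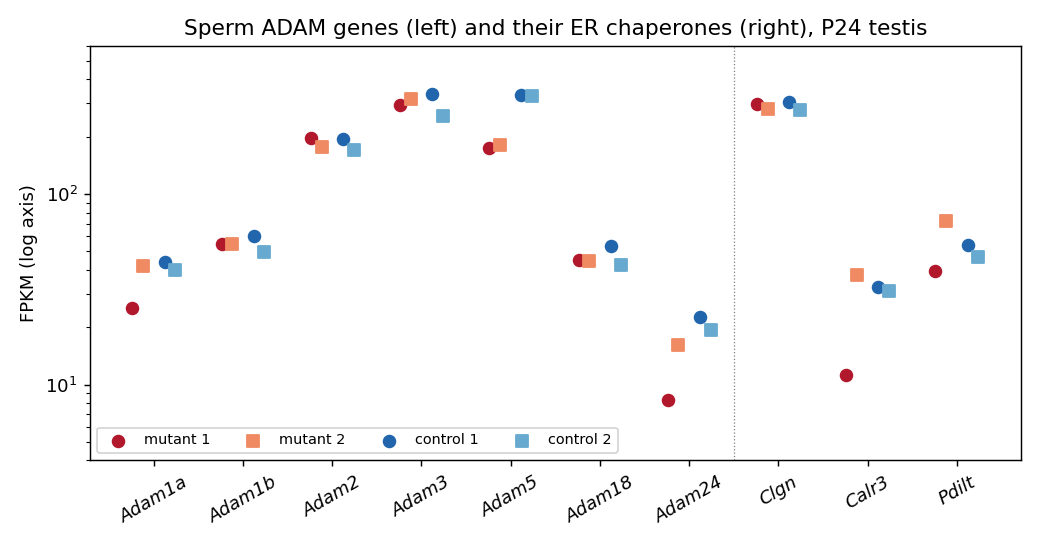
FPKM on a log axis of the 7 ADAM genes and the 3 chaperone genes, with 1 point for each of the 4 samples (red circles and orange squares, mutant 1 and 2; blue circles and squares, control 1 and 2). The mutant points of Adam5 lie at 174 and 181 and its control points at 331 and 329, and mutant 1 stands below the other samples for Adam1a, Adam24, Calr3 and Pdilt.

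The targeted gene was checked first. Rfx2 had an FPKM of 36.7 in mutant 1, 39.8 in mutant 2, 123 in control 1 and 89.4 in control 2, a log2 fold change of -1.43 (standard error, SE, 0.19; limma adjusted p = 0.00617). The value is for the whole gene, and the deletion leaves other exons that can still be transcribed. The adjusted p was 0.0675 with median-ratio scaling of the samples, 0.0607 without a filter on low values and 0.071 without control 1, above the threshold of 0.05.

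Markers of the cells of the testis were read beside the 10 genes, as the sum of the FPKM of each list in percent of the mean of the 2 controls. In bulk RNA, fewer cells of a type and less RNA per cell cannot be told apart. The elongating spermatid list (10 genes, protamines and transition proteins among them) was at 21.7% in mutant 1 and 101% in mutant 2, with the controls at 119% and 81.2%. The study reports that mutant spermatids arrested while round and that elongating spermatids were absent from older mutant testes. The name of this list therefore does not show that such cells were present in the mutants. The round spermatid list (10 genes) was at 59.1% in mutant 1 and 123% in mutant 2, with the controls at 108% and 91.9%. The pachytene spermatocyte list (10 genes) was at 101% and 102%, with the controls at 106% and 93.5%. Ldhc held most of the pachytene sum, with 2379 of 3753 FPKM in mutant 1. In this list both mutants were below both controls for Pgk2 (58.6% and 80.6%) and above them for Hspa2 (107% and 108%). In these sums mutant 1 was low in the late germ cell lists, while mutant 2 lay near or above the controls. Single markers differed from the sums. Both mutants were below both controls for 2 elongating markers (Prm1 and Tnp1) and 1 round marker (Spaca7), and above them for 0. In mutant 2 these 3 were at 78.2%, 76.0% and 65.0% of the control mean, whereas Smcp and Oaz3 of the elongating list were at 169% and 179%. Without mutant 2, the median log2 fold change was -1.26 for the elongating and -0.83 for the round spermatid markers. Without mutant 1, these medians were 0.22 and 0.30. The sums in mutant 1 and mutant 2 were 117% and 93.6% for spermatogonia (7 genes), 127% and 111% for Sertoli cells (7 of 8 genes found), 166% and 93.2% for Leydig cells (6 genes) and 93.0% and 63.7% for macrophages (5 genes), and the controls differed among themselves by as much in the last 2 lists (146% and 53.6%, and 74.8% and 125%). In the 7 lists, 0 markers found in the files were at 0 in all samples and 0 of those tested were called in either direction by limma, with 2 lower and 0 higher at an unadjusted p under 0.05. The part of these differences in the results below was not tested.

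Fertilin is the ADAM1 and ADAM2 heterodimer. Adam2, which encodes its beta subunit (chr14:66646166-66696570, minus strand, NCBIM37, the assembly also called mm9), had an FPKM of 196 in mutant 1, 176 in mutant 2, 194 in control 1 and 171 in control 2. The samples of the genotypes interleaved, and the log2 fold change was 0.03 (95% interval -0.38 to 0.44, limma adjusted p = 1). The alpha subunit has 2 genes in the mouse that lie next to each other within 21.6 kb of chromosome 5. Adam1b (chr5:121950106-121952989, minus strand), whose product is the ADAM1 form of the sperm surface, was at 54.8 and 54.6 in the mutants and 59.9 and 49.9 in the controls. Both mutant values lay between the control values, with a log2 fold change of 0.00 (95% interval -0.38 to 0.39). Adam1a (chr5:121968613-121971704, minus strand), whose product stays in the ER of spermatids, was at 25.3 in mutant 1, 41.7 in mutant 2, 44.1 in control 1 and 39.7 in control 2. Only mutant 1 was low, at 60.2% of the control mean against 99.5% for mutant 2, and the log2 fold change of -0.36 (95% interval -0.91 to 0.20, limma adjusted p = 1) did not exceed the spread between replicates. Without mutant 2, it was -0.71 with an adjusted p of 0.0244 from limma, a fit that takes the lone mutant sample to vary like the controls. Of the 50-base stretches of their annotated transcripts, 35.0% of those of Adam1a and 37.6% of those of Adam1b also occurred in another protein-coding gene, mostly in each other, so reads may have been split between the pair and the values of each are uncertain.

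Adam3, the gene of cyritestin, lies on chromosome 8 (chr8:25787697-25836324, minus strand) in a run of 5 ADAM genes with no other protein-coding gene among them, in the order Adam18, Adam3, Adam5, Adam32, Adam9, over 415 kb. Its FPKM was 294 in mutant 1, 317 in mutant 2, 337 in control 1 and 258 in control 2. Both mutant samples again lay between the controls, with a log2 fold change of 0.05 (95% interval -0.43 to 0.53, limma adjusted p = 1). Adam18, a further sperm ADAM (chr8:25712718-25785227, minus strand), was at 45.3 and 44.4 in the mutants and 53.5 and 42.2 in the controls, a log2 fold change of -0.08 (95% interval -0.49 to 0.32).

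Adam5 differed from these. It is a testis ADAM of the same family (chr8:25837565-25934841, minus strand), and its annotated end is 1240 bases from Adam3. Its FPKM was 174 in mutant 1, 181 in mutant 2, 331 in control 1 and 329 in control 2. The 2 mutant samples were close to each other, as were the 2 controls, and the gap between genotypes was far wider than either spread. The level was 1.86-fold lower in mutant testes, a log2 fold change of -0.89 (SE 0.17, 95% interval -1.30 to -0.49, limma adjusted p = 0.0384). In the controls Adam5 stood at the level of Adam3, with an Adam5 to Adam3 ratio of 0.982 and 1.28, and in the mutants the ratio was 0.593 and 0.572. With 2 samples against 2, a two-sided exact permutation test of this ratio gives p = 0.333, the smallest it can give. None of the 50-base stretches of Adam5 occurred in another annotated protein-coding gene, and the same was true of Adam3 and Adam18. Adam5 was at 52.8% of the control mean in mutant 1 and 54.8% in mutant 2. How this relates to the cell markers above was not tested.

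The call of Adam5 sat near the threshold. It was kept under 8 of 12 alternative settings with all 4 samples, and the log2 fold change ran from -0.92 to -0.89 over them. The adjusted p (limma) was 0.123 without a filter on low values, 0.179 with median-ratio scaling, 0.0517 without a variance trend and 0.106 with a crossed replicate block. Leaving out any 1 sample gave log2 fold changes from -0.92 to -0.86 and adjusted p from 0.0685 to 0.193.

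**Figure D2:**
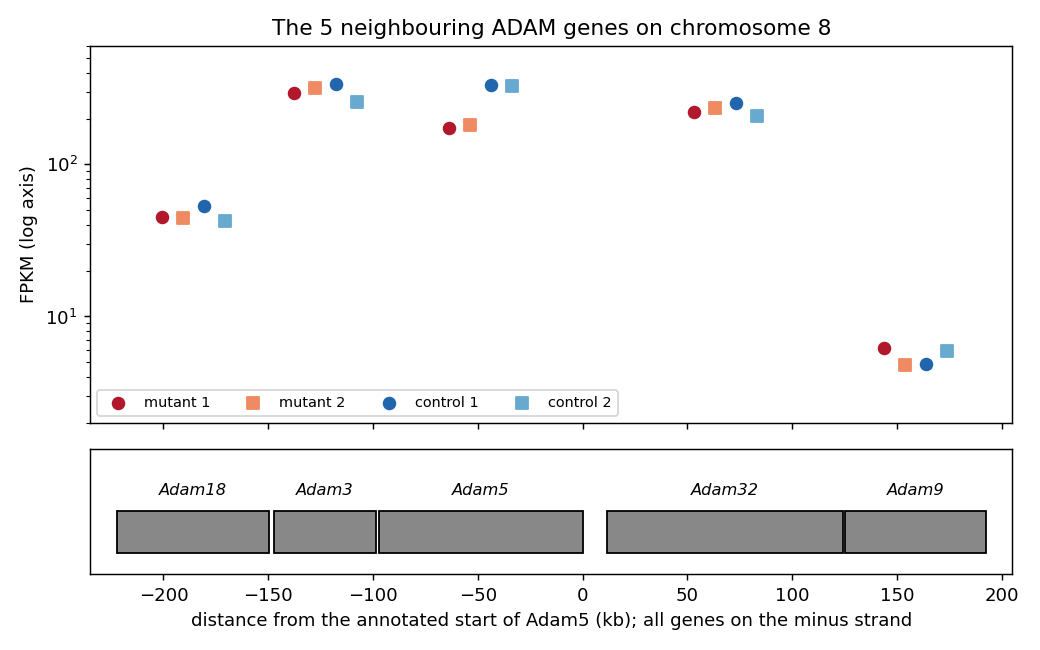
FPKM on a log axis of the 5 neighbouring ADAM genes of chromosome 8 (top; 1 point for each sample) above their annotated extent (bottom), by distance in kb from the annotated start of Adam5. Adam5 alone has its mutant points apart from its control points, while those of Adam18, Adam3, Adam32 and Adam9 interleave.

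The gene on the other side of Adam5, Adam32, encodes another testis ADAM. Its FPKM was 220 and 235 in the mutants and 254 and 208 in the controls, a log2 fold change of -0.01 (95% interval -0.44 to 0.42). Adam9, a broadly expressed protease gene at the end of the run, was at 6.22 and 4.78 in the mutants and 4.90 and 5.89 in the controls. In both neighbours the genotypes overlapped.

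Adam24 encodes testase 1, a sperm ADAM that keeps the metalloprotease active site, and had the lowest level of the 10 genes (chr8:41760448-41767553, plus strand). Its FPKM was 8.30 in mutant 1, 16.2 in mutant 2, 22.8 in control 1 and 19.3 in control 2. Both mutant samples lay below both controls, at 39.5% and 76.9% of the control mean. The log2 fold change of -0.80 (SE 0.29, 95% interval -1.46 to -0.13) had an unadjusted p of 0.0252 and an adjusted p of 0.376 from limma, so it was not called. Without mutant 2 it was -1.24 with an adjusted p of 5.06e-05, and without mutant 1 it was -0.35. Mutant 1, the lower of the pair, was also the sample with low spermatid markers.

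Clgn was among the most abundant of the 10 genes (chr8:85913766-85952451, plus strand), with an FPKM of 298 in mutant 1, 279 in mutant 2, 306 in control 1 and 277 in control 2. The samples interleaved, with a log2 fold change of -0.01 (95% interval -0.44 to 0.42, limma adjusted p = 1). Pdilt (chr7:126630101-126666996, minus strand) was at 39.4 in mutant 1 and 72.5 in mutant 2, with 54.1 and 46.8 in the controls. Its mutant samples lay on either side of the controls, at 78.1% and 144% of their mean, and the log2 fold change was 0.09 (95% interval -0.54 to 0.71). It was 0.52 without mutant 1 and -0.35 without mutant 2 (limma, adjusted p = 0.302 and 0.711).

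Calr3 (chr8:74948075-74967769, minus strand) had the widest spread between the mutants relative to its control mean. Its FPKM was 11.2 in mutant 1 and 37.7 in mutant 2, while control 1 had 32.5 and control 2 had 30.9, so mutant 1 was at 35.3% of the control mean and mutant 2 at 119%. The log2 fold change of -0.59 (SE 0.45, 95% interval -1.64 to 0.46, limma adjusted p = 1) was smaller than the spread between the mutants. It was -1.42 without mutant 2 (adjusted p = 1.04e-07) and 0.24 without mutant 1, so its direction turned with 1 library. The sums of the round and elongating spermatid lists were likewise below the controls in mutant 1 and not in mutant 2.

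RFX proteins bind the X-box, a palindrome of 2 arms, and one common form of its arm is the half-site GGCAAC. Other forms of the arm, such as AGCAAC, were not counted over all promoters and are not marked below. Promoters in RefSeq (GRCm38.p6, 250 bases before to 50 after the start) were found for 4 of the 10 genes, Adam1a, Adam1b, Pdilt and Calr3, the last with 2 starts. A full X-box with a gap of 0 to 3 bases was in 0 of these 5 windows and in 1.53% of the 32851 promoters of the table. The half-site GGCAAC, searched on both strands and able to overlap an X-box, was in both Calr3 windows and in 12.5% of all promoters. Those 2 are printed because no other window of the 10 genes held it, with the half-site, read on the opposite strand, in capitals. It began 147 bases before the first start (chr8:72443729-72444028, minus strand) and 49 bases before the second (chr8:72435107-72435406, minus strand).
Calr3 first start: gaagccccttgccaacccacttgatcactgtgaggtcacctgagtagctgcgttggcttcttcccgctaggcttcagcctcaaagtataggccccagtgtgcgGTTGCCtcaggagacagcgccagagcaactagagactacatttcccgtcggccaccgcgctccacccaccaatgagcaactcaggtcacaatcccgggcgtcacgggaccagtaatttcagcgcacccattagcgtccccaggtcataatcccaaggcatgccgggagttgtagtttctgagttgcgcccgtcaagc
Calr3 second start: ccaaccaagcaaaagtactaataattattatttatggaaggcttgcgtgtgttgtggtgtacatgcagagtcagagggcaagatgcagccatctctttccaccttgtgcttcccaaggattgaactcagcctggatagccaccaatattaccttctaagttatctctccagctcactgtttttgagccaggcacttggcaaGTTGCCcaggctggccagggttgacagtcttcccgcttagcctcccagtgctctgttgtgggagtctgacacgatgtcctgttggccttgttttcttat
A match describes these letters and does not show that RFX2 binds there.

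The other genes of ADAM3 maturation were compared as a list of 11: Ace, Tex101, Ly6k, Prss37, Prss55, Pmis2, Rnase10, Tpst2, Cmtm2a, Cmtm2b and Lypd4, most of which encode sperm or germ cell proteins without which ADAM3 is absent from or misplaced on sperm. All 11 were tested, and 0 were called in either direction by limma, with 0 also at an unadjusted p under 0.05. Their median log2 fold change was -0.03. The lowest was that of Prss37, a protease-like protein gene, at -0.60 (limma, adjusted p = 1), and the highest that of Tpst2, the gene of a tyrosine sulphotransferase, at 0.30. Prss37 had an FPKM of 16.0 in mutant 1, 73.4 in mutant 2, 59.3 in control 1 and 46.8 in control 2. As with Calr3, mutant 1 lay far below the controls and mutant 2 above them. Ace, Prss55 and Pmis2 were at 58.9%, 32.8% and 44.9% of the control mean in mutant 1 and at 141%, 132% and 101% in mutant 2. Without mutant 2, these 4 genes were called lower by limma, and without mutant 1, 0 of the list were. Tex101, which encodes a surface protein of germ cells that associates with ADAM3 during its maturation, was at 370 and 355 in the mutants and 279 and 357 in the controls.

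**Figure D3:**
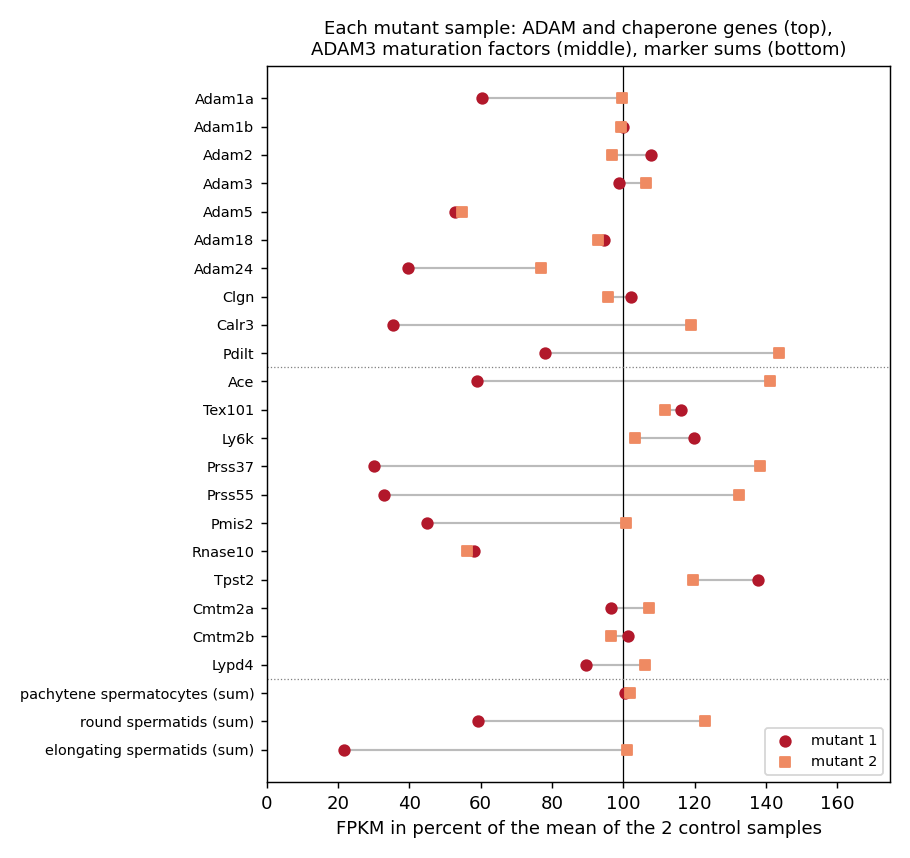
FPKM of mutant 1 (red circles) and mutant 2 (orange squares) in percent of the mean of the 2 controls, for the 10 genes (top), the 11 other factors of ADAM3 maturation (middle) and the summed markers of pachytene spermatocytes, round spermatids and elongating spermatids (bottom). Adam5 is near 53% in mutant 1 and 55% in mutant 2. Adam1a, Adam24, Calr3, Prss37, Prss55 and the elongating spermatid sum lie far lower in mutant 1 than in mutant 2.

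General ER chaperones gave a view of the folding machinery shared by all cells. Of 12 genes (Canx, Calr, Pdia3, Pdia4, Pdia6, P4hb, Hspa5, Hsp90b1, Uggt1, Ppib, Dnajb11 and Sdf2l1), 0 were called in either direction by limma, with 0 at an unadjusted p under 0.05. Their log2 fold changes ran from 0.02 for Uggt1, the glucosyltransferase that marks unfolded glycoproteins, to 0.31 for Calr, the gene of calreticulin (limma, adjusted p = 1 for both). The FPKM of Calr was 483 and 420 in the mutants and 353 and 375 in the controls, above the controls in both mutants but not called. The median of the list was 0.13, against 0.032 over all genes tested. It was -0.002 without mutant 1 and 0.31 without mutant 2.

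Some other sperm ADAM genes were lower in the mutants. They belong to a list of 14 further sperm ADAMs that was written with earlier results of these data known. The count of calls in it is therefore not independent of these data. All 14 were tested, and limma called 7 lower and 0 higher (2.52% and 0.308% of all genes). The median log2 fold change over the list was -0.94, with -0.59 without mutant 1 and -1.63 without mutant 2. The median of -0.94 includes 4 genes, named below, that passed the filter only through the controls and had to differ. The 7 were Adam20, Adam21, Adam25, Adam26a, Adam34, Adam34l and Adam39. For 4 of the 14 (Adam21, Adam26a, Adam34 and Adam34l) both mutant values were under 1, so these passed the filter only through the controls and had to differ, and 3 of the other 10 were called. Those 3 (Adam20, Adam25 and Adam39) were also called without mutant 1 and without mutant 2. The count of 7 became 2 without a filter on low values, with median-ratio scaling and with quantile normalization, and 3 with an FPKM of at least 5. Without control 1 or without control 2 it had 1, Adam20, and the 4 genes passing through the controls were not tested there, since they no longer passed the filter. Adam20 and Adam34l are listed in the files as 4930529F22Rik and Gm5346 and were matched by synonym.

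Adam24 lies in a run of 4 such genes on chromosome 8 with no other protein-coding gene among them (Adam24, Adam25, Adam20, Adam39; chr8:41760448-41912215), and its 3 neighbours fell. Adam25 was at 1.09 and 2.51 in the mutants and 10.6 and 6.52 in the controls, a log2 fold change of -1.79 (limma, adjusted p = 0.0269). Adam39 was at 0.788 and 2.51 against 10.8 and 9.17, with -2.13 (adjusted p = 0.0118). Adam20 was at 0.910 and 1.88 against 16.7 and 8.62, with -2.48 (adjusted p = 0.00662). In the 3 genes both mutants were far below both controls, and mutant 1 was the lower of the pair. They shared 32.4%, 37.1% and 32.8% of their 50-base stretches with other genes, most often with each other, so reads may have been divided among them, and their separate values are uncertain. Adam24 shared none.

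A second run lies at chr8:44605218-44784841 and holds Adam26b, Adam26a, Adam34l and Adam34. Adam26a had the largest fall of the 24 sperm ADAM and chaperone genes in these 2 lists, with an FPKM of 0.203 and 0.293 in the mutants and 11.8 and 8.21 in the controls and a log2 fold change of -3.12 (limma, adjusted p = 0.000292). It was called under all 12 alternative settings with 4 samples, but it is among the genes that passed the filter only through the controls. The other 6 called genes each lost the call under some settings. Adam20 and Adam39 were called under 9 of 12, Adam25 under 8 of 12, Adam21 under 10 of 11, and Adam34 and Adam34l under 8 of 11. Adam26b, which shares 34.9% of its 50-base stretches with other genes, mostly Adam26a, was at 0.768 and 2.02 against 2.96 and 2.43, with -0.67 (adjusted p = 0.546). The called genes of this run shared stretches too. Adam26a shared 35.6% of them, most often with Adam26b. Adam34 shared 19%, most often with Adam26a, and Adam34l shared 10%, most often with Adam34. Reads may therefore have been divided among the genes of this run, and their separate values and calls are uncertain. Adam34 fell by 1.59 and Adam34l by 0.96 on the log2 scale (limma, adjusted p = 0.0134 and 0.0286), and Adam21, on chromosome 12, fell by 2.15 (adjusted p = 0.00341). Adam34l had an FPKM of 0.116 and 0.213 in the mutants and 1.24 and 1.30 in the controls, just above the filter of 1. Adam34 was at 0.288 and 0.888 against 4.17 and 3.28, and Adam21 at 0.257 and 0.316 against 6.20 and 3.50. The low values of these genes in the mutants make the pseudocount of 1 shrink their fold changes. No promoter window of the 9 genes of this list found in RefSeq held a full X-box. Adam26b and Adam34l held the half-site at one and the same place, 51 bases before the start, and are printed for that reason (chr8:43528088-43528387 and chr8:43703375-43703674 of GRCm38.p6, minus strand).
Adam26b: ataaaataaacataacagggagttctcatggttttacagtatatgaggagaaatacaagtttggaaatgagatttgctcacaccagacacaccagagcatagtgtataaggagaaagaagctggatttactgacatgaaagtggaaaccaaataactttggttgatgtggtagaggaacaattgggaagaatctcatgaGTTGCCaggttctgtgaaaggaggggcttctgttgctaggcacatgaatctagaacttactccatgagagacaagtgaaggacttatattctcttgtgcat
Adam34l: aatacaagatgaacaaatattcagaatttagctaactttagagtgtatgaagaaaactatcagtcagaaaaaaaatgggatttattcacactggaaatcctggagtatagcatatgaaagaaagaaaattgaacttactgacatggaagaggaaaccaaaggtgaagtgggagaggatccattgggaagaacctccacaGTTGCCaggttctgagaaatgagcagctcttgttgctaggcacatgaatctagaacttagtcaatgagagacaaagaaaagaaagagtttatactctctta
The half-site, again on the opposite strand, is in capitals. Adam34l was called lower and Adam26b was not. The arm form AGCAAC was not counted over all promoters, so no share can be set beside it. Read by eye on either strand, it stands unmarked in both of these windows and in those of the called genes Adam20 and Adam25. It also stands in the windows of Adam1b and of the first Calr3 start, genes that were not called. The windows of the called genes Adam21 and Adam34 do not hold it.

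**Figure D4:**
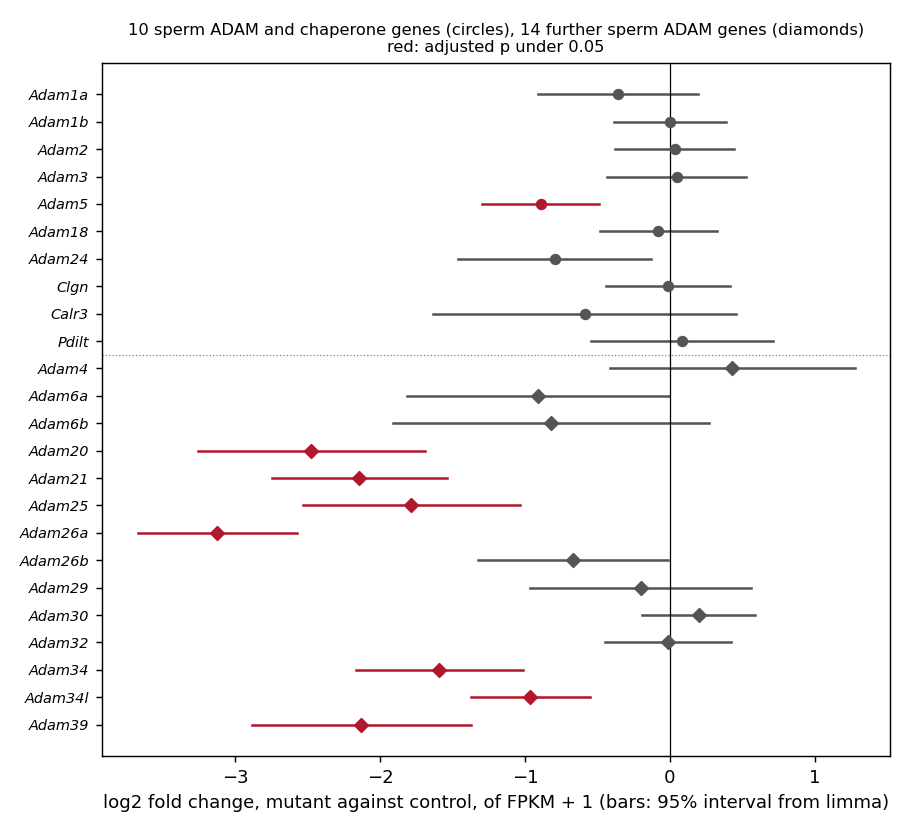
Log2 fold change (mutant against control, of FPKM + 1) with its 95% interval from limma for the 10 genes (circles) and the 14 further sperm ADAM genes (diamonds), red where the adjusted p is under 0.05. Adam5 is the only circle in red, at -0.89, and 7 diamonds are red, from -3.12 for Adam26a to -0.96 for Adam34l.

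The remaining 6 of the 14 beside Adam26b were not called. Adam32, Adam30 and Adam29 had log2 fold changes of -0.01, 0.20 and -0.20. Adam4 was at 9.14 and 23.1 in the mutants and 10.9 and 10.3 in the controls, with the mutants on either side, and it was called higher without mutant 1 (log2 fold change 1.06 and limma adjusted p = 0.00258). Adam6a and Adam6b, which shared 30.1% and 30.5% of their 50-base stretches, mostly with each other, had an FPKM of 5.10 and 3.23 in mutant 1 and 14.7 and 12.7 in mutant 2, against 16.4 to 18.3 and 11.9 to 13.1 in the controls. Their log2 fold changes were -0.91 and -0.82 (limma, adjusted p = 0.569 and 0.903), and mutant 1 was the low sample in each. Without mutant 2, Adam6a, Adam6b and Adam26b were called lower, with log2 fold changes of -1.59, -1.67 and -1.06 (limma, adjusted p = 6.76e-07, 3.32e-06 and 0.0161).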

How the data were processed

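The authors aligned reads to mm9 with TopHat (TopHat2 2.0.6 in the submitters' processing notes), estimated expression with Cufflinks guided by the UCSC annotation, and deposited 1 table per sample of gene FPKM with upper and lower confidence bounds. FPKM were used as deposited. They are not counts, so Cuffdiff could not be repeated and limma was used. Entries sharing a symbol were summed, and values were analysed as log2(FPKM + 1). The fit took genes that reached an FPKM of 1 in 2 or more samples (lmFit, and eBayes with a trend; limma 3.58.1, R 4.3.3; python 3.11.15, pandas 2.3.3, scipy 1.17.1), with a threshold of 0.05. The functions were tested on simulated data.

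The interval widths correspond to 17.2 to 20.3 M fragments per sample, and for the 10 genes to between 494 and 26000 fragments, a half-width of 1.24% to 8.99% of the value that covers counting error only. A fold change is on the log2(FPKM + 1) scale. The members and lists were chosen with earlier results of these data known. Named are the 10 genes, Rfx2 and, in each related list, the genes called or the lowest and the highest change. Other genes given with values were chosen after their values were seen. Positions and shared stretches come from GENCODE vM1 on NCBIM37, and synonyms and promoters from RefSeq. Alternatives were other pseudocounts, filters, scalings and eBayes settings, a replicate block, the highest entry per symbol and each sample left out. The crossed replicate block was added after seeing the data.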

Additional observations from a re-analysis of the deposited data

How the results depend on the processing

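With 2 samples per genotype, 2 residual degrees of freedom remain, and a gene that was not called was not shown to be unchanged. The median log2 fold change of all genes moved from 0.032 to 0.081 with quantile normalization and to 0.006 with median-ratio scaling. The number of the 10 genes called lower was 1, and it was 0 without a filter, with median-ratio scaling, without a variance trend and with the crossed replicate block, and 0 to 3 when 1 sample was left out. The number called higher was 0 in every fit. The cause of these shifts was not tested. Leaving out a sample leaves fewer samples and only 1 in its genotype, so the spread is then taken from the other genotype alone.

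The number of all genes called lower, 327, became 199 without a filter, 202 with an FPKM of at least 5, 525 with the replicate block and 79 to 944 when 1 sample was left out (79 without control 1, 93 without control 2 and 944 without mutant 2). The 40 called higher became 17 without a filter and with an FPKM of at least 5, 16 with median-ratio scaling, 67 with robust eBayes, 70 with the replicate block and 10 to 138 when 1 sample was left out (138 without mutant 1, 84 without mutant 2, 17 without control 1 and 10 without control 2). The 8 called genes of the related lists (7 sperm ADAM genes and Adam11) became 2 without a filter, with median-ratio scaling and with quantile normalization, 3 with an FPKM of at least 5, and 1 to 15 when 1 sample was left out (15 without mutant 2 and 1 without either control).

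Rfx2 kept its direction in every fit, at -1.43 without a filter (limma, adjusted p = 0.0607) and -1.46 with median-ratio scaling (limma, adjusted p = 0.0675), both above the threshold of 0.05, and -1.66 to -1.20 when 1 sample was left out. Of the 10 genes, Adam1b turned to -0.029 with median-ratio scaling. When 1 sample was left out, the log2 fold changes of 7 genes took both signs, from -0.13 to 0.13 for Adam1b, -0.057 to 0.12 for Adam2, -0.15 to 0.24 for Adam3, -0.25 to 0.087 for Adam18, -0.087 to 0.060 for Clgn, -1.42 to 0.24 for Calr3 (-0.59 with all samples) and -0.35 to 0.52 for Pdilt.

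Samples that share a replicate number did not deviate together (correlation -0.154 over 12985 genes), so the numbers were not taken to pair them. With the replicate block, 1 of the 10 genes was called lower, Adam5 at an adjusted p of 0.0208. With the crossed replicate block, 0 of the 10 and 6 genes of the related lists were called. Each of these fits leaves 1 residual degree of freedom.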

Other observations

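Outside the germ line members of the family, 14 other ADAM genes were listed. Of these, 7 were tested and 7 (Adam7, Adam8, Adam12, Adam19, Adam28, Adam33 and Adamdec1) were too low for the filter. The gene called by limma was Adam11, which encodes an ADAM known from the nervous system, at an FPKM of 0.285 and 0.256 in the mutants and 1.77 and 1.34 in the controls, with a 95% interval of -1.44 to -0.56 for the log2 fold change (limma, adjusted p = 0.0319). It passed the filter only through the controls, and it was called under 7 of 11 alternative settings with 4 samples. The broadly expressed sheddase genes Adam10 and Adam17, the proteases known for Notch and tumour necrosis factor cleavage, had log2 fold changes of 0.03 and -0.02, with FPKM of 9.54 and 7.20 against 6.24 and 10.5 for Adam10 and of 7.44 and 6.33 against 5.66 and 8.54 for Adam17. The genotypes overlapped in both.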
